A study of Mus musculus with 27 samples.

Results

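Tight junctions seal the space between neighbouring epithelial cells at their apical border. Claudins and the MARVEL proteins span the membrane there, JAM-A binds its counterpart on the next cell, and adaptors of the ZO family together with cingulin tie these proteins to actin. Epithelial cells lose such contacts during the epithelial-to-mesenchymal transition (EMT), and TGF-β is a classical inducer of it in mammary epithelial cells. Described here are 9 tight junction genes, chosen by name: the claudins Cldn3, Cldn4 and Cldn7, the MARVEL proteins occludin (Ocln) and tricellulin (Marveld2), JAM-A (F11r), the adaptors ZO-1 (Tjp1) and ZO-3 (Tjp3), and cingulin (Cgn). They are 9 of 23295 genes in the table of parental cells and 9 of 24247 in the table of knockdown cells.

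All samples were NMuMG, a line of normal mouse mammary gland epithelium, left untreated (0 h) or given TGF-β at 1 to 5 ng/ml for 8 or 24 h. RNA-seq covered 6 libraries of parental cells and 12 of cells infected with an shRNA vector and selected with puromycin, either an irrelevant shRNA (control) or one against lamin B1 (KD), with 2 biological replicates per group. Control and KD cells therefore shared infection and selection, which parental cells lacked. Lamin B1 ChIP-seq on a fraction enriched for euchromatin and ATAC-seq, a measure of open chromatin, had 1 library per time point in parental cells, so peaks have no replicate check. Lmnb1, which encodes the target of the shRNA, stood at 29.2 and 36.5 FPKM (fragments scaled to transcript length and to the reads mapped) in control cells at 0 h and at 9.01 and 9.27 in KD cells. At 8 h it was 32.8 and 32.1 against 7.79 and 8.14, and at 24 h 18.4 and 17.9 against 4.37 and 7.52, so message remained in every KD library and the second KD library at 24 h held the more of its pair.

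The summed FPKM of 6 epithelial markers lay between 4322 and 7056 in all 18 libraries, against 1.43 to 1.99 (parental) and 0.992 to 1.78 (control and KD) for 5 leukocyte markers and 1.08 to 1.66 and 0.0132 to 0.608 for 4 endothelial ones. Nearly all of the leukocyte sum was Cd68, since Ptprc, which defines leukocytes, did not exceed 0.0178. The epithelial keratins Krt8 and Krt18 were at 1720 FPKM or more in every library, whereas Epcam did not exceed 3.15. The 10 most abundant genes took 25.03 to 34.1% of the summed FPKM in parental and 11.4 to 40.4% in control and KD libraries. Relative depth, read from the spacing of the lowest values, spanned 92.9 to 116% of the first library of the parental table and 79.2 to 113% of the first of the other. In bulk RNA, fewer cells with a transcript and less transcript per cell cannot be told apart.

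The start regions of 5 of the genes are shown first, because the E2-box CACCTG, the letters bound by Snail and Zeb repressors, stood close to the start in Cldn4, Ocln and Tjp3, and because Marveld2 and F11r, which hold it too, moved in opposite directions after TGF-β. Each run holds 300 bases of the mm9 genome (NCBIM37), from 250 before to 50 after the start annotated by GENCODE M1, 5′ to 3′ in the direction of transcription. Capitals mark CACCTG or its reverse complement CAGGTG, and the AP-1 letters TGANTCA.

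Cldn4, chr5:135422755-135423054, minus strand: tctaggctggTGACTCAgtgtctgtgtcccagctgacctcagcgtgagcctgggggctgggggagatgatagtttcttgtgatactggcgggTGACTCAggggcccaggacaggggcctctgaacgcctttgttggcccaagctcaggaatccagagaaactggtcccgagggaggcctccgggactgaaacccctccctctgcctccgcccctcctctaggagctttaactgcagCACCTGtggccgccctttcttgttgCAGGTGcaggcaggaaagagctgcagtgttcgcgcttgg
Ocln, chr13:101322624-101322923, minus strand: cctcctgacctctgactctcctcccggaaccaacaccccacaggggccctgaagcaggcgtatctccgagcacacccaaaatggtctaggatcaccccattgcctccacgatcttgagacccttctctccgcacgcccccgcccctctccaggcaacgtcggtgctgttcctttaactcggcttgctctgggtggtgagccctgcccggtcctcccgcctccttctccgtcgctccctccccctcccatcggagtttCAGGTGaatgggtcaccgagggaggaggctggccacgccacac
Tjp3, chr10:80753963-80754262, minus strand: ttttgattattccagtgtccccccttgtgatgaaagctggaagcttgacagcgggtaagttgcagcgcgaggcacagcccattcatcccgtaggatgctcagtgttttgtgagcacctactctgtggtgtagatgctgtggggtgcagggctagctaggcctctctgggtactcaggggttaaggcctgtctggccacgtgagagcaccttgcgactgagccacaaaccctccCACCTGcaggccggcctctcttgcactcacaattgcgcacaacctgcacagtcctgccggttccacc
Marveld2, chr13:101386877-101387176, minus strand: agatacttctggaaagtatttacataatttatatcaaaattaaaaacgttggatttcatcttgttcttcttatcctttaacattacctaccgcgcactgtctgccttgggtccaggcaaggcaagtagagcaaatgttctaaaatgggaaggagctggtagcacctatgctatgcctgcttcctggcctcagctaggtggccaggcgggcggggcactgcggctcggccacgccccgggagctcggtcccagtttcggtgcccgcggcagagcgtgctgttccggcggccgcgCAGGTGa
F11r, chr1:173367416-173367715, plus strand: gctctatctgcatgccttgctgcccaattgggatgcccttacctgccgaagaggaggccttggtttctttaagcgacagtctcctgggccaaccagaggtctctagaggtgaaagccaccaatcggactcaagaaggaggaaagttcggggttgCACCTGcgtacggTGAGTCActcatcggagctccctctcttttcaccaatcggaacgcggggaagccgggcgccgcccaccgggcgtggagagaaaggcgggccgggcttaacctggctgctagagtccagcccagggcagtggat

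CACCTG, read on both strands, was present in this window in 6 of the 9 genes, and 19.7% of 20994 promoters of the same length held it. The 6 were Cldn3, Cldn4, Ocln, Tjp3, F11r and Marveld2. Cldn4 alone held it at 2 places, from base -14 and from base 11 counted from the start, and in Ocln and Tjp3 it began at base 7 and base -17. RefSeq, another annotation, also has a start at base -314 for Tjp3, base 220 for Ocln and base 642 for Cldn7. All distances given here are from the GENCODE start. From 1000 bases before to 200 after the start, 8 of 9 genes and 59.7% of all promoters held it, and Tjp1 did not. TGANTCA was found in Cldn4 (2 places) and F11r, against 7.0% of all promoters. The grainyhead letters AACCNGTT were found in Cgn, against 1.91%, and the Smad palindrome GTCTAGAC in none of the 9, against 0.167%. A match is a run of letters and was not tested as a binding site. Over all promoters the median share of G and C was 55.7%, and the members ranged from 52.0% in Cldn7 to 71.0% in Cgn. Tjp1 held 32 CG pairs in its 300 bases, Cgn 24 and Cldn7 7, against a median of 12.

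In untreated parental cells the genes spanned several orders of magnitude on the length-corrected FPKM scale. F11r was the highest at 102 ± 1.31 FPKM (SD, n = 2), followed by Tjp1 at 55.3 ± 3.47, Cgn at 14.7 ± 0.557, Ocln at 11.5 ± 0.138, Tjp3 at 3.94 ± 0.187 and Marveld2 at 2.62 ± 0.116. No 2 neighbours in this order overlapped between their libraries. Cldn4 was at 0.0923 and 0.147 FPKM. Cldn3 was listed at 0 in 16 of all 18 libraries and did not exceed 0.0562, and Cldn7 was listed at 0 in 13 and did not exceed 0.0379. After 24 h of TGF-β the order had changed: Cldn4, at 8.44 ± 1.06 FPKM, ranked next after F11r and Tjp1, and Tjp3, at 0.413 ± 0.0366, lay below Marveld2 at 0.525. Cgn and Ocln overlapped at 8 h (8.82 and 10.5 against 8.94 and 9.79 FPKM).

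**Figure D1:**
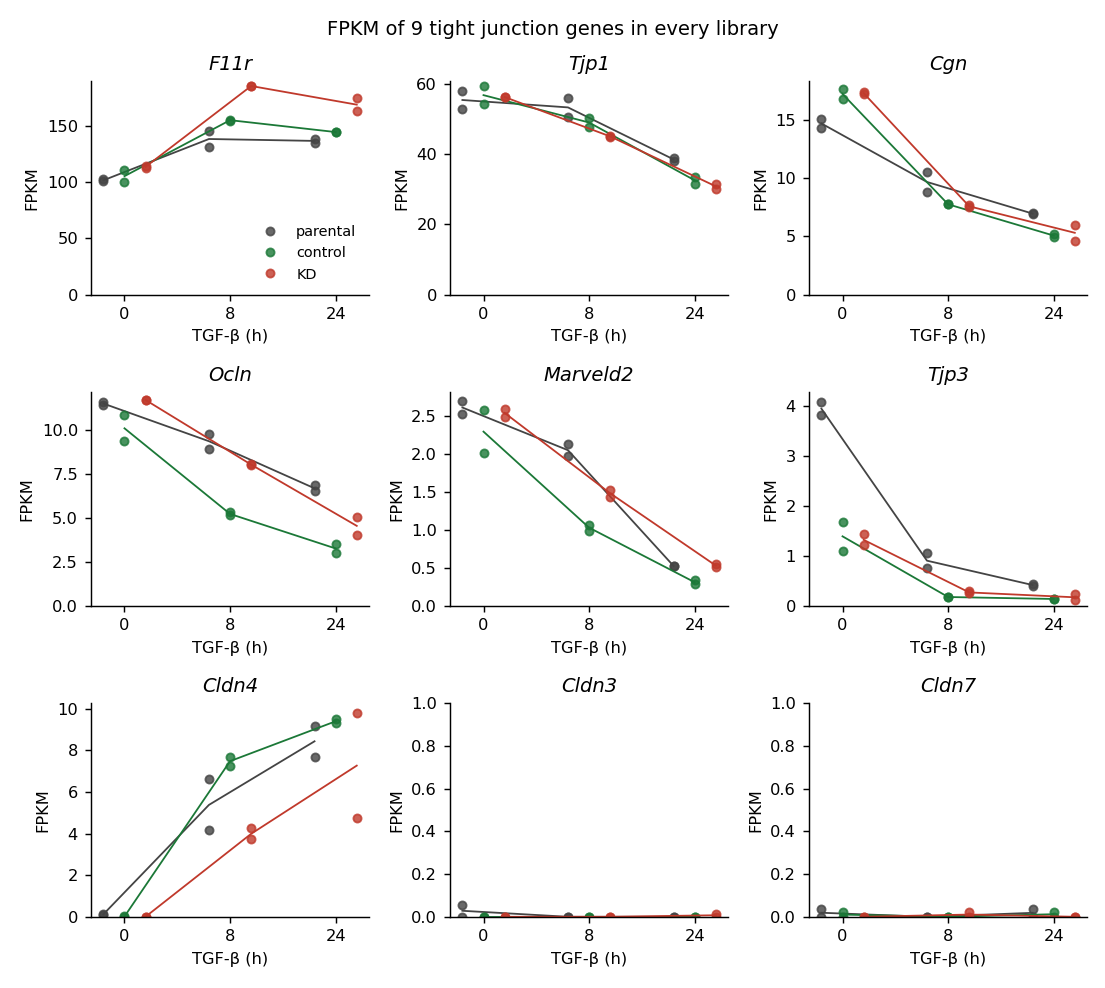
FPKM of the 9 genes (one panel each, linear axes from 0) at 0, 8 and 24 h of TGF-β, drawn at equal distances, in parental (grey), control (green) and KD (red) cells. Points are libraries and lines join the means of 2; Cldn4 went from at most 0.147 FPKM at 0 h to at least 3.72 at 8 h, while Tjp1, Ocln, Cgn, Marveld2 and Tjp3 ended lower than they began in all 3 kinds of cells.

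The first comparison asks how each gene responded to TGF-β in parental cells. It used limma on log2(FPKM + 1) over the 11309 genes that reached 1 FPKM in at least 2 of the 6 libraries, with Benjamini-Hochberg adjustment over all of them and a threshold of 0.05. Of the 9 genes, 7 passed that filter, Cldn3 and Cldn7 being too low. At 8 h 4 of them were lower than at 0 h and 2 were higher, where 32.1% of all genes tested were lower and 22.4% were higher. At 24 h 5 were lower and 2 higher, against 37.1% and 33.4%. Between 8 and 24 h 5 more falls and 1 rise were called, against 24.0% and 27.7%. The shares over all genes depend on scaling. After quantile normalization the calls at 8 h changed from 3626 lower and 2535 higher to 3043 and 3012. Cldn4 passed the filter only through treated libraries, so it had to be higher at 8 and 24 h than at 0 h. Tjp3 passed through both 0 h libraries and 1 at 8 h, so it had to be lower at 24 h than at 0 h. For Tjp3 the filter also favoured a fall at 8 h. Marveld2 passed through 0 and 8 h libraries and none at 24 h, so it had to be lower at 24 h. The counts, and the adjusted p of Cldn4, Tjp3 and Marveld2 in the comparisons named, are therefore no support beyond the FPKM that follow.

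Tjp3, whose product ZO-3 is an adaptor found in epithelia, fell the most. It was at 3.81 and 4.07 FPKM at 0 h, at 0.744 and 1.06 at 8 h and at 0.387 and 0.439 at 24 h. The 3 groups did not overlap, and the mean at 0 h was 4.38 times that at 8 h and 9.54 times that at 24 h. On the log2(FPKM + 1) scale, which understates changes of low genes, the difference was -1.38 ± 0.0935 (SE; adjusted p = 6.44e-05, limma) at 8 h and -1.81 ± 0.0935 (adjusted p = 4.78e-06) at 24 h. With 0.1 added in place of 1 these were -2.03 and -2.98. The filter had fixed the direction at 24 h and favoured it at 8 h, so both adjusted p are no support beyond the FPKM.

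Marveld2 encodes tricellulin, the protein of the corners where 3 cells meet. Its libraries read 2.70 and 2.54 FPKM at 0 h, 1.98 and 2.13 at 8 h and 0.525 in each at 24 h. The difference from 0 h was -0.24 ± 0.0680 at 8 h (adjusted p = 0.0202) and -1.25 ± 0.0680 at 24 h (adjusted p = 5.84e-06), and that between 8 and 24 h was -1.002 (adjusted p = 4.44e-05). The filter had fixed the direction at 24 h, so the adjusted p for that time are no support beyond the FPKM. The call at 8 h was lost after quantile normalization (adjusted p = 0.0540) and without the first 0 h or the first 8 h library (0.107 and 0.0781).

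Ocln, encoding the MARVEL protein occludin, read 11.4 and 11.6 FPKM at 0 h, 8.94 and 9.79 at 8 h and 6.51 and 6.85 at 24 h, with no overlap between times. Its difference from 0 h was -0.27 ± 0.0588 (adjusted p = 0.00711) at 8 h and -0.70 ± 0.0588 (adjusted p = 4.11e-05) at 24 h. Cgn, whose product cingulin binds ZO-1 and myosin, read 14.3 and 15.1, then 8.82 and 10.5, then 6.93 and 6.95 FPKM. Its difference from 0 h was -0.56 ± 0.0779 at 8 h (adjusted p = 0.00106) and -0.98 ± 0.0779 at 24 h (adjusted p = 3.25e-05).

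Tjp1, the gene of the central adaptor ZO-1, responded later in parental cells. It was at 52.9 and 57.8 FPKM at 0 h and at 50.5 and 56.0 at 8 h, which overlap (difference -0.06, 95% interval -0.20 to 0.09, adjusted p = 0.484). At 24 h both libraries were lower, at 38.0 and 38.9, and the difference from 0 h was -0.51 ± 0.0626 (adjusted p = 0.000278).

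F11r and Cldn4 moved the other way. F11r, the gene of the adhesion protein JAM-A, rose from 102.7 and 101 FPKM to 146 and 132 at 8 h and was at 135 and 138 at 24 h. The log2 difference was 0.44 ± 0.0517 at 8 h (adjusted p = 0.000506) and 0.42 ± 0.0517 at 24 h (adjusted p = 0.000277), and the 2 times did not differ by the test (-0.02, 95% interval -0.14 to 0.11, adjusted p = 0.814). Cldn4, encoding a claudin known to tighten the paracellular barrier against sodium, went from 0.0923 and 0.147 FPKM to 6.61 and 4.15 at 8 h and 9.19 and 7.69 at 24 h. These were fitted differences of 2.48 ± 0.174 (adjusted p = 7.09e-05) and 3.07 ± 0.174 (adjusted p = 6.89e-06) with 1 added, and of 4.62 and 5.29 with 0.1 added, so the size depends on the constant. Cldn4 passed the filter only through treated libraries, so these adjusted p are no support beyond the FPKM. Its further rise between 8 and 24 h (0.59 ± 0.174, adjusted p = 0.0268) was lost in a fit of those groups alone (0.0514) and without the second 8 h or the first 24 h library (0.0511 and 0.134).

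Cells carrying an shRNA gave the same directions. In control cells 5 of the 7 genes tested were lower at 8 h and 2 were higher, where 44.9% and 19.4% of 11450 genes were called. At 24 h the counts were again 5 and 2, against 45.1% and 25.5%. In KD cells they were 5 and 2 at 8 h, against 44.8% and 23.0%, and 5 and 2 at 24 h, against 43.3% and 28.6%. In these cells Tjp3 passed the filter only through 0 h libraries and Cldn4 only through treated ones, so both had to differ between treated and untreated cells. Marveld2 passed through 0 and 8 h libraries and none at 24 h, so it had to be lower at 24 h. The counts, and the adjusted p of Tjp3, Cldn4 and Marveld2 in those comparisons, are therefore no support beyond the FPKM. The values as deposited put the median of all genes at -0.14 in control and -0.13 in KD cells at 8 h, and at -0.13 and -0.10 at 24 h. After quantile normalization the control calls at 8 h changed from 5137 lower and 2223 higher to 3624 and 3082, those at 24 h from 5169 and 2924 to 3901 and 3900. KD calls changed from 5132 and 2629 to 4036 and 3432 at 8 h and from 4959 and 3277 to 4103 and 4126 at 24 h.

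Relative to that median, Ocln differed by -0.69 in control cells at 8 h and by -1.25 at 24 h, Cgn by -0.92 and -1.45, and Marveld2 by -0.55 and -1.19. F11r differed by 0.70 and 0.59 and Cldn4 by 3.21 and 3.49. Tjp1 at 8 h differed by -0.07 only: its call in control cells (-0.21 ± 0.0535, adjusted p = 0.00803) was lost after quantile normalization (adjusted p = 0.0995), after median-ratio scaling (0.411) and without the second control library at 8 h (0.0618). In KD cells Tjp1 at 8 h differed by -0.31 ± 0.0535 (adjusted p = 0.000733, limma), or -0.18 relative to the median. That call stayed after quantile normalization (-0.27, adjusted p = 0.00188) and median-ratio scaling (-0.18, adjusted p = 0.0248). At 24 h Tjp1 differed by -0.65 from 0 h relative to the median in control cells and by -0.75 in KD cells. Both libraries of each group lay below all 0 h libraries, at 31.4 and 33.6 FPKM in control and 31.5 and 30.0 in KD cells against 54.2 to 59.3.

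**Figure D2:**
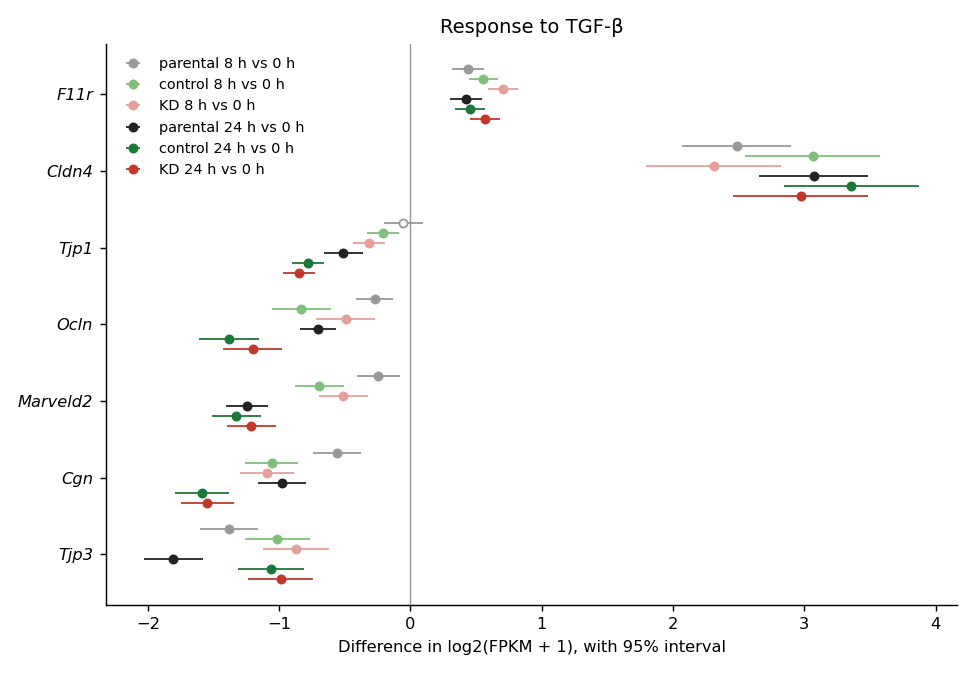
Difference in log2(FPKM + 1) between treated and untreated cells for the 7 genes tested, with 95% intervals from the limma fit of each table (grey and black parental, green control, red KD, pale 8 h, dark 24 h), filled where adjusted p passed 0.05. Only Tjp1 at 8 h in parental cells is open, and F11r and Cldn4 lie right of 0 in all 6 comparisons. Because of the filter, filled points of Cldn4 and Tjp3, and of Marveld2 at 24 h, are no support beyond the FPKM.

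The levels at 0 h of the infected cells were not those of parental cells for every gene, and since the tables were processed separately these are values side by side. Tjp3 was at 1.67 and 1.10 FPKM in control cells against 3.81 and 4.07 in parental ones. Cldn4 was at 0.0204 and 0.00982 in control cells, and at 0 and 0.00990 in KD cells. Ocln reached 2.98 and 3.54 in control cells at 24 h against 6.51 and 6.85 in parental cells, from starts of 9.35 to 11.6 FPKM in both. F11r was between 100.3 and 111 in control cells at 0 h, and 101 to 102.7 in parental ones.

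The second comparison asks whether these genes differed between KD and control cells. Before TGF-β no difference was called: by limma 0 of 7 genes were called between KD and control cells and 0 reached an unadjusted p under 0.05, where 19.7% of all genes were called in either direction. The widest interval was that of Cldn4 (-0.53 to 0.50), the narrowest that of F11r (-0.00265 to 0.224). Cldn4 did not exceed 0.0204 FPKM in the libraries at 0 h, so the width of its interval came from the other groups of the fit. Without the first control library at 0 h, 2 genes were called higher in KD cells, F11r (0.18, adjusted p = 0.0230) and Marveld2 (0.23, adjusted p = 0.0420).

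At 8 h of TGF-β 3 genes were higher in KD than in control cells and 1 was lower, where 19.3% and 16.5% of all genes were. Of the genes higher in KD cells, Ocln showed the widest gap: it was at 8.00 and 8.06 FPKM in KD cells against 5.31 and 5.14 in control cells, a mean 1.54 times as high (0.54 ± 0.0992, adjusted p = 0.00389). F11r was at 186 in both KD libraries and at 155 and 156 in control ones (0.26 ± 0.0498, adjusted p = 0.00479). Marveld2 was at 1.44 and 1.53 against 0.990 and 1.07 (0.29 ± 0.0819, adjusted p = 0.0238). Cldn4 was at 3.72 and 4.27 FPKM in KD cells against 7.71 and 7.26 in control cells, 1.88 times lower by the means (-0.77 ± 0.226, adjusted p = 0.0282). None of these 4 genes overlapped between the groups. Leaving out any 1 of the 4 libraries at 8 h left the calls of Ocln and F11r and ended those of Cldn4 (adjusted p of 0.0766 to 0.131) and Marveld2 (0.0717 to 0.121). Tjp1 (-0.12, interval -0.24 to 0.00322), Cgn (-0.03, -0.23 to 0.17) and Tjp3 (0.11, -0.14 to 0.36) were not called. Tjp1 was called when only the 8 h groups were fitted (adjusted p = 0.0459).

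At 24 h Ocln and F11r were called higher in KD cells and no gene was called lower, against 16.8% and 11.5% of all genes. F11r read 175 and 164 FPKM in KD cells against 145 in both control libraries (0.22 ± 0.0498, adjusted p = 0.0124). Ocln read 5.04 and 4.05 against 2.98 and 3.54 (0.38 ± 0.0992, adjusted p = 0.0227). Neither call was made when only the 24 h groups were fitted (adjusted p = 0.0735 for F11r and 0.151 for Ocln) or without the first control library (0.0737 and 0.154). F11r was lost without the second control library (0.0652) and after quantile normalization (0.0936), and Ocln without the first KD library or without the filter (0.0716 in both). Marveld2 was at 0.505 and 0.555 against 0.284 and 0.335 and missed the threshold with 1 added (0.22 ± 0.0819, adjusted p = 0.0710) but not with 0.1 added (0.62, adjusted p = 0.0115).

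The KD libraries disagreed on Cldn4 at 24 h. The first read 4.76 FPKM and the second 9.78, which lies above both control libraries at 9.49 and 9.32. Over all libraries the difference was -0.40 ± 0.226 (adjusted p = 0.213), and without the second KD library it was -0.85 (adjusted p = 0.000348). That library was also the one with the higher Lmnb1 (7.52 against 4.37 FPKM) and the higher Cgn (5.99 against 4.60) of the pair, and without the first KD library Cgn was called higher in KD cells (0.21, adjusted p = 0.0159). Whether these differences belong together was not tested.

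**Figure D3:**
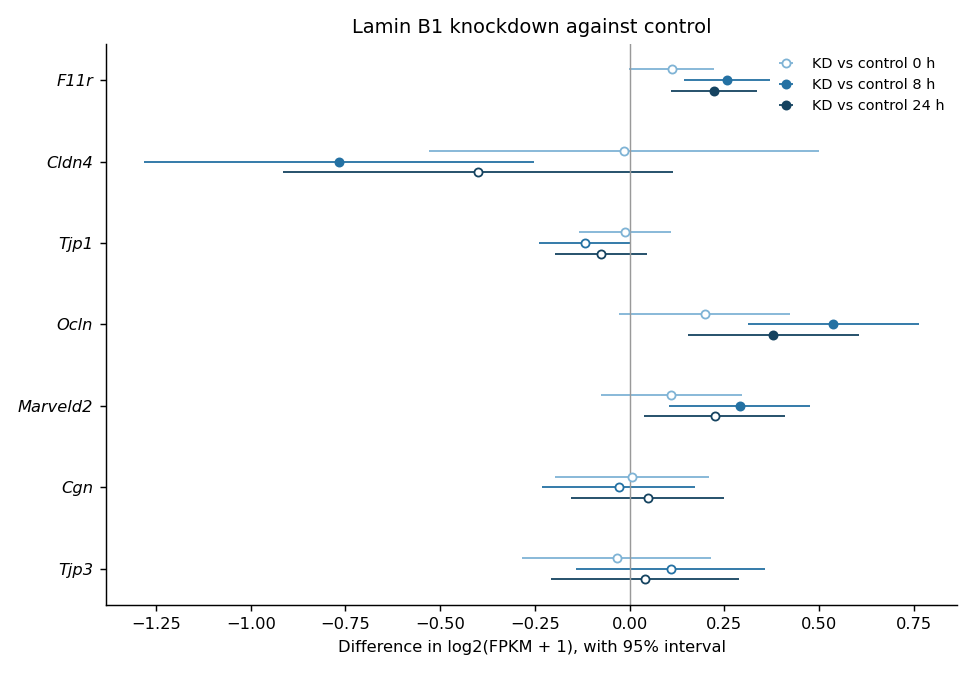
Difference in log2(FPKM + 1) between KD and control cells for 7 genes at 0 (pale), 8 (mid) and 24 h (dark blue) of TGF-β, with 95% intervals from 1 limma fit of 12 libraries; filled points passed an adjusted p of 0.05. No point at 0 h is filled; at 8 h Ocln, Marveld2 and F11r lie to the right and Cldn4 to the left.

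The response to TGF-β itself was not shown to differ between KD and control cells. The interaction, the response in KD minus that in control cells, gave 0 calls in 7 genes at 8 h by limma, with 2 at an unadjusted p under 0.05, and 0 at 24 h with 0 at that level, where 4.06% and 4.72% of all genes were called. The 2 at 8 h were Ocln (0.34 ± 0.140, interval 0.02 to 0.66, adjusted p = 0.212) and Cldn4 (-0.75 ± 0.319, interval -1.48 to -0.03, adjusted p = 0.223). Cldn4 was called in a fit of those 4 groups alone (adjusted p = 0.0142), and F11r (0.22, adjusted p = 0.0437) without the second control library at 0 h. At 24 h Cldn4 was called without the second KD library (-0.84, adjusted p = 0.00540). Over all genes, quantile normalization changed the interaction calls at 24 h from 227 lower and 313 higher to 267 and 246.

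The 9 genes are part of a longer list. Of 55 other claudins, junction membrane proteins, adaptors and polarity proteins in the parental table, 32 were tested, of which 12 were lower and 10 higher at 8 h, where 32.1% and 22.4% of all genes were. At 24 h 17 were lower and 13 higher, against 37.1% and 33.4%, with a median difference of -0.28 against -0.02 over all genes. In control cells 18 of 31 were lower and 11 higher at 24 h, against 45.1% and 25.5%, and in KD cells 19 and 11, against 43.3% and 28.6%. Between KD and control cells 2 were lower and 4 higher at 0 h, where 19.7% of all genes were called in either direction. At 8 h 4 were lower and 2 higher, against 16.5% and 19.3%, and at 24 h 4 were lower and 7 higher, against 11.5% and 16.8%. The last 2 shares depend on scaling. After quantile normalization the calls over all genes changed from 1317 lower and 1924 higher to 1611 and 1613.

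Among the other claudins 3 of 20 were tested in parental cells. Cldn2, which forms a channel for small cations, was lower at 24 h (-0.97 ± 0.0924, adjusted p = 7.87e-05), and Cldn25 (0.74) and Cldn12 (0.35) were higher. Of 5 other membrane proteins 4 were lower, led by Cxadr, the coxsackievirus and adenovirus receptor (-1.53 ± 0.108), and Lsr, the angulin that recruits tricellulin to cell corners (-1.02 ± 0.0361), and Jam2 was higher (0.30). The 15 adaptors split into 7 lower, with Cgnl1, the paralog of cingulin (-1.04), and the scaffold Magi3 (-0.76) first, and 8 higher, with the angiomotin relatives Amotl1 (1.42) and Amotl2 (1.17) first. Of 9 polarity proteins 5 were lower, among them Crb3, the epithelial Crumbs (-1.60 ± 0.162), and Lin7c (-0.66), and Mpp5 (0.60) and Pard3 (0.22) were higher. For comparison, E-cadherin (Cdh1) differed by -1.50, Krt19 by -3.98, Krt18 by 0.26 and Krt7 by 0.55, and Fn1, the gene of the matrix protein fibronectin, by 3.06.

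The genes whose pattern was most like that of the 7 tested members were found by the lower of 2 Pearson correlations with the mean z-score of the members, over 6 parental and over 12 control and KD libraries, among 10843 genes. They were Il22ra1 (0.989), Nt5c2 (0.989), Gpd1 (0.985), Cdh17 (0.985) and Mlph (0.984). These are descriptions over libraries that share treatment and table. Among the members themselves Marveld2 stood closest to the mean (0.989), followed by Ocln (0.957) and Tjp1 (0.925), and Cldn4 (-0.83) and F11r (-0.56) ran against it. Each member is itself part of that mean, which raises its value, so members and other genes cannot be ranked together. Il22ra1, a subunit of the interleukin 22 receptor, went from 11.3 ± 0.321 FPKM at 0 h to 8.45 ± 0.242 at 8 h and 2.02 ± 0.0213 at 24 h in parental cells. Cdh17, an intestinal cadherin, went from 57.4 ± 1.96 to 38.9 ± 2.62 and 10.8 ± 0.444.

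Peaks were then placed at the genes, on mm9 with GENCODE M1. A gene was counted when a peak touched it anywhere from 2500 bp before its start to its 3′ end. The lists held 4645, 10484 and 7083 lamin B1 peaks and 9782, 10340 and 33811 ATAC peaks at 0, 8 and 24 h, so scores are given with their percentile in the list of the same library. A percentile also depends on how many peaks were called, so percentiles at different times are set side by side with no test. Lamin B1 peaks were found at 3 of the 9 genes at 0 h, 6 at 8 h and 4 at 24 h, where 19.9%, 38.8% and 29.4% of 20994 genes had one. Cut to equal length by score, the lists gave 3, 5 and 4 genes against 19.9%, 21.1% and 21.1% of all genes. ATAC peaks were found at 4, 5 and 5 of the 9 genes, where 37.0%, 32.9% and 60.0% of all genes had one, and at 4 each in lists of equal length, against 37.0%, 31.7% and 34.6%.

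Cldn7 (chr11:69778281-69781387, plus strand) carried a lamin B1 peak overlapping exons at every time although its RNA was at or near 0. The peak spanned chr11:69778659-69780424 at 0 h with a score of 82.9, at the 67.3rd percentile of its list, and its upstream edge lay 52 to 404 bp inside the gene over the 3 times. At 8 and 24 h the scores were 128 and 138, at percentiles 81.0 and 81.5. The further RefSeq start, 642 bp into the gene, lay within the peak at every time. Neither Cldn3 (chr5:135462084-135463342, plus strand), also at or near 0 FPKM, nor Cgn (chr3:94464507-94590414, minus strand) nor F11r (chr1:173367666-173394734, plus strand) was touched by a lamin B1 peak at any time.

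Ocln (chr13:101266462-101322673, minus strand) had a lamin B1 peak over its start at all times, of about the same width (2130, 1899 and 1975 bp). Its score was 80.7 at 0 h, 161 at 8 h and 217 at 24 h, which put it at percentiles 65.2, 89.9 and 94.8. In these hours its RNA fell, as given above. The neighbouring Marveld2 (chr13:101365912-101386926, minus strand), separated from Ocln by 43238 bp, had no lamin B1 peak at 0 h and one over its start at 8 h (score 108, percentile 72.2) and 24 h (163, percentile 88.3). That peak also touched Rad17.

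Tjp3 (chr10:80735952-80754012, minus strand) held the highest-ranked lamin B1 peak of the 9 genes at each time, within an intron 4588 to 4998 bp after the start. Its score was 155 at 0 h, 235 at 8 h and 354 at 24 h, and its percentile 94.95, 96.8 and 99.0. An ATAC peak was called at the same place at 24 h only (score 117, percentile 38.1). The gene was also touched by 3 exonic lamin B1 peaks at 8 h, with scores of 71.5 to 140. The one with a score of 140 (chr10:80734854-80735955) met only the last bases of Tjp3 and lay otherwise beyond its 3′ end. It also touched Apba3, which overlaps Tjp3. At 24 h the peak there (score 83.0) lay 172 bp beyond the gene and was not counted. The study shows strand-specific RNA-seq profiles, and whether the FPKM were counted by strand is not given in the sources used here. The value of Tjp3 may therefore include reads from the overlap with Apba3. The same limit applies to Cgn, which overlaps BC021767, Gm15264 and Selenbp2, to Cldn3 (Wbscr25) and to Marveld2 (U6).

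Cldn4 (chr5:135420996-135422804, minus strand, 1 exon) and Tjp1 (chr7:72441051-72516125, minus strand) had a lamin B1 peak at 8 h and at no other time. That of Cldn4 lay in the exon from 58 to 1163 bp after the start (score 87.3, percentile 58.0), and that of Tjp1 over the start (76.0, percentile 45.8). Cldn4 had no ATAC peak within the gene or 2500 bp upstream at any time. The nearest lay 3715 bp upstream at 24 h only (score 126, percentile 41.0), and one 11963 to 12150 bp upstream was called at all times, with percentiles of 32.4, 45.5 and 91.4 at 0, 8 and 24 h.

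**Figure D4:**
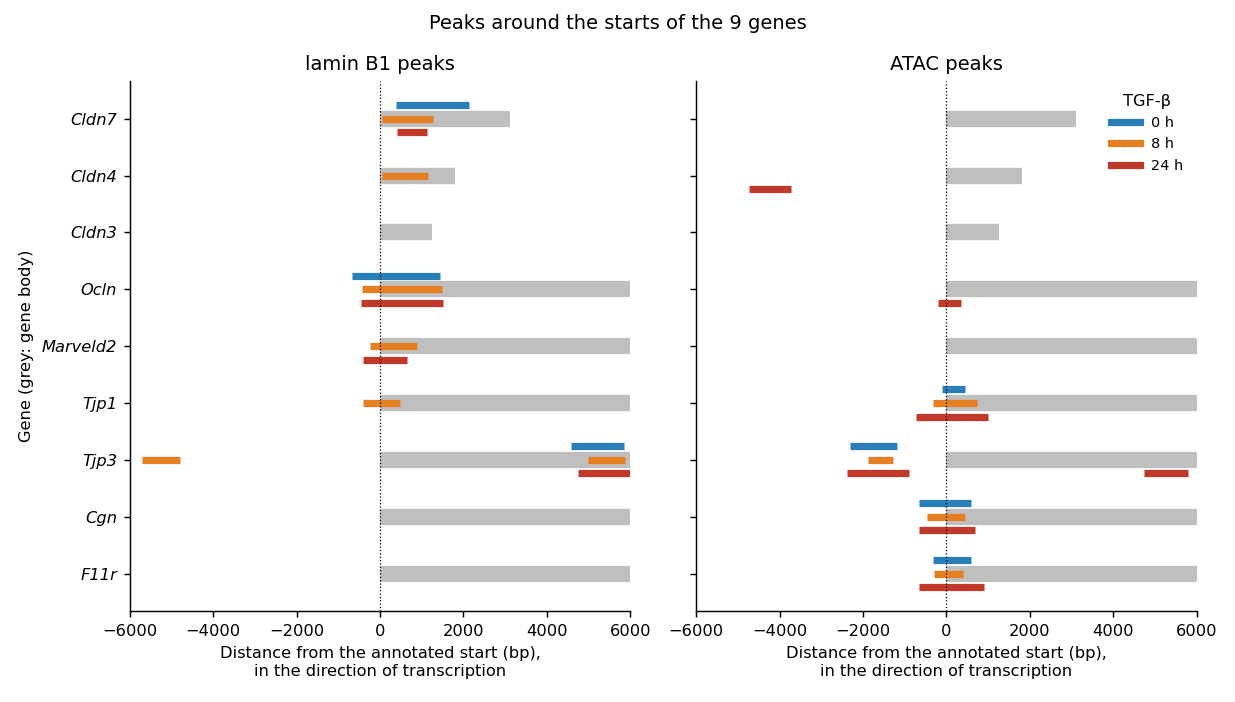
Lamin B1 peaks (left) and ATAC peaks (right) near the annotated start of the 9 genes, as distance in the direction of transcription; blue 0 h, orange 8 h, red 24 h, grey the gene body. Lamin B1 bars sit at the starts of Cldn7 and Ocln at 3 times, of Marveld2 at 8 and 24 h, and of Cldn4 and Tjp1 at 8 h. ATAC bars sit at the starts of Tjp1, Cgn and F11r at 3 times and of Ocln at 24 h.

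The starts open by ATAC at all times were those of Tjp1, Cgn and F11r, the 3 most abundant transcripts of the set in untreated parental cells. Tjp1 scored 65.0, 104 and 365 at 0, 8 and 24 h (percentiles 22.3, 81.8 and 84.3), Cgn 82.4, 50.6 and 258 (41.1, 1.36 and 71.0), and F11r 74.0, 67.2 and 347 (33.1, 38.7 and 82.5). The F11r peak also covered the start of the gene model Gm17520. Ocln had an ATAC peak over its start at 24 h only, a low one (61.6, percentile 9.70), and intronic peaks at 8 h (1) and 24 h (3). The ATAC peak counted for Tjp3 at all times lay 896 to 1285 bp upstream at its near edge and covered the start of Pip5k1c, so it cannot be given to Tjp3 alone. Cldn3, Cldn7 and Marveld2 had none.

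Within 500 bp of the start, lamin B1 without ATAC was seen at Cldn7 and Ocln at 0 h, at Cldn4, Cldn7, Ocln and Marveld2 at 8 h and at Cldn7 and Marveld2 at 24 h. Both were seen at Tjp1 at 8 h and at Ocln at 24 h. Of the members with lamin B1 at the start, ATAC was thus also called at 0 of 2, 1 of 5 and 1 of 3, and of all genes with lamin B1 there at 67.4%, 47.1% and 81.2%. With so few genes and 1 library a time, this is a description. Tjp1, Cgn and F11r accounted for every member with ATAC but not lamin B1 at the start at 0 and 24 h.

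**Figure D5:**
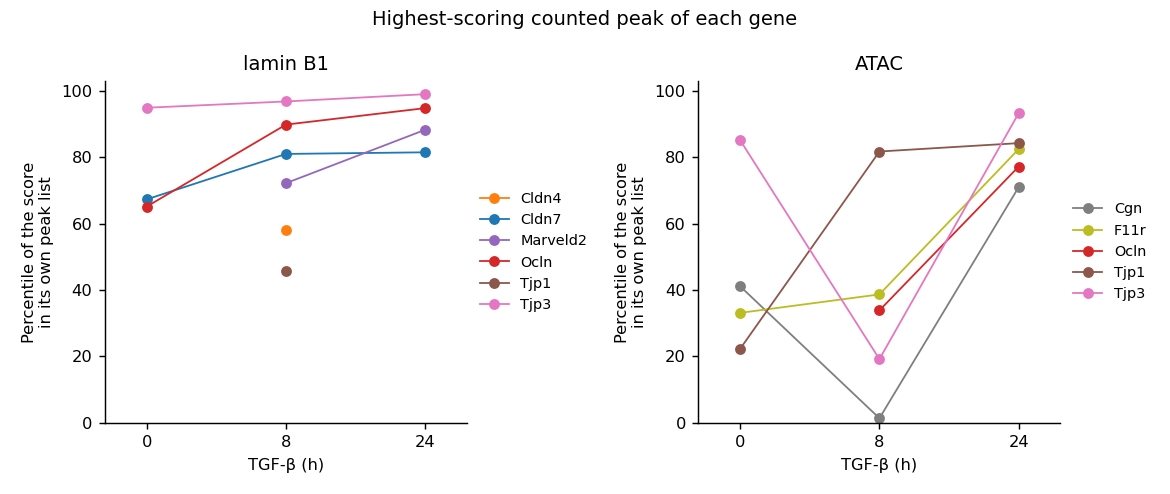
Percentile, within the peak list of the same library, of the highest-scoring peak counted at each gene for lamin B1 (left) and ATAC (right) at 0, 8 and 24 h, with 1 library per point and lists of unequal length (4645 to 10484 and 9782 to 33811 peaks), so a difference in rank between times was not tested. The lamin B1 peak of Tjp3 ranks first among the 9 genes at each time (percentiles 94.95, 96.8 and 99.0), and the ATAC peak shown for Tjp3 covers the start of Pip5k1c.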

How the data were processed

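RNA-seq values were the FPKM per gene and library that the authors deposited. Per the labels, Bowtie, TopHat and Cufflinks on mm9 were named, with versions, annotation and the strand setting of the counting not given in the sources used here; the study shows strand-specific profiles. Peak lists were deposited by the authors as intervals with a MACS score on mm9, 1 library per time point, and each lamin B1 library mixed 2 parallel ChIPs. No peak reached beyond a chromosome of NCBIM37 (0 of all lists). Absolute depth is unknown, so no counting intervals are given. Hi-C libraries (3) were not analysed here. Neither table has a header line. Columns of the parental table were placed by the order of time points in the labels, which do not tell replicates apart.

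Genes reaching 1 FPKM in 2 or more of a table's libraries were fitted across all genes with limma 3.58.1 (R 4.3.3, lmFit, contrasts.fit, eBayes with trend) on log2(FPKM + 1), all libraries of a table in 1 fit with no covariate, so lone libraries were assumed to vary like the other groups. Benjamini-Hochberg adjusted p under 0.05 was called, two-sided. The fit was tested on simulated data. Replicates are biological per the methods of the study. Each p-value rests on the spread between the 2 samples of a group, pooled over all groups of a table and moderated over genes by limma. It does not rest on the spread of the compared groups alone. Peaks and promoter letters were read with Python 3.11.15 and pandas 2.3.3 at GENCODE M1 genes whose symbol is unique (20994), and the letters searched beside CACCTG were added later. The members and lists were chosen with earlier results of these data known. Named were all 9 members, Lmnb1, of each other list at most 2 called genes with the largest fall and 2 with the largest rise at 24 h in parental cells, and the 5 most similar genes, with ranges for cell type markers. Tried instead were 0.1 as the constant, all genes unfiltered, median-ratio scaling, quantile normalization, the groups compared alone, each library left out, a replicate block, and other peak and promoter windows.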

Additional observations from a re-analysis of the deposited data

How the results depend on the processing

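Of the recomputed counts, 138 stayed within 1.5 times the reported value and 18 did not. Of the recomputed differences of single genes, 835 kept their side of the threshold, 31 lost it, 9 passed it newly and 0 changed sign while called. Without the filter on low values 3 members were called between 24 and 8 h in parental cells (6 with it), 2 for KD against control at 8 h (4) and 1 at 24 h (2); more genes were tested in these fits. At 24 h quantile normalization left 1 call between KD and control cells and fitting only those groups left 0. The interaction at 8 h gave 1 call when only its groups were fitted. Leaving out 1 library gave 0 to 2 calls between KD and control cells at 0 h, 2 in every case at 8 h and 0 to 3 at 24 h, 0 to 1 for each interaction, 5 to 6 in parental cells at 8 h, 4 to 6 between 24 and 8 h, and 6 to 7 in control cells at 8 h. The other time comparisons gave 7 under each library left out.

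Of the ATAC counts, peaks at or above the median score left 1 member at 0 h and 1 at 8 h, and a window of 500 bp around the start left 3 at 8 h. The other peak and promoter counts stayed within 1.5 times.

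Deviations of same-numbered samples were correlated between all groups of control and KD cells, within and across the kinds of cells. Over 15 pairs of groups the correlations ran from -0.14 to 0.37, with 2 over 0.1 and 3 under -0.1. They had no common direction, so the numbers were not taken to pair samples. A fit with the replicate block gave the same counts for the members: 7 for each time comparison, 0, 4 and 2 for KD against control at 0, 8 and 24 h, and 0 for both interactions. No paired analysis was possible in parental cells because the columns carry no replicate numbers.

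The FPKM scale limits Cldn3 and Cldn7, which lie below 0.1 in all libraries, and peak scores cannot be tested with 1 library per time.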
